A study of Mus musculus with 12 samples.

Results

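The genes described here are 37 mouse liver genes of fatty acid oxidation and ketone body formation, taken from a list of names. Gene IDs were paired with symbols through the GENCODE M21 annotation, and all 37 of the 37 listed genes were found among the 53465 gene IDs of the table. All 37 also passed the filter on low counts and are among the 14778 genes tested. By their known site of action 21 were counted as mitochondrial, 9 as peroxisomal and 3 as found in both compartments. The others are Ppara, a nuclear receptor, and Acsl1, Vnn1 and Aldh3a2, which were not counted in either compartment.

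Liver RNA was sequenced in 4 groups of 3 libraries. The groups were hepatocyte-specific Pld1 knockout livers on a high-fat diet (KO on HFD), floxed control livers on HFD, KO livers on normal chow and floxed control livers on chow. The series description gives 20 weeks of HFD. The samples' genotype field calls the KO a knockdown and the controls WT, while another field names the controls Pld1-Flox. How the deletion was driven, the age and sex of the mice, and whether each library came from a separate animal is not stated in the sources used here. The p-values therefore measure only how far these libraries differ among themselves, and that spread may be technical.

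Fatty acids are activated to acyl-CoA, carried into mitochondria as carnitine esters by Cpt1a, Slc25a20 and Cpt2, and shortened there in repeated cycles of dehydrogenation, hydration, a second dehydrogenation and thiolytic cleavage. Very long and branched chains are shortened first in peroxisomes by a separate set of enzymes. Liver turns much of the acetyl-CoA into ketone bodies, and Ppara, a receptor for fatty acids, is a known activator of genes at each of these steps in mouse liver.

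The libraries held 18215008 to 22378180 counts, and levels are given as CPM, which are counts scaled to a common library size after TMM adjustment. Levels carry their SD over the 3 libraries of a group, and the common biological coefficient of variation was 3.95%. Pld1 itself was at 2.60 ± 0.575 CPM in KO livers on HFD, against 7.13 ± 0.624 CPM in control livers on HFD (log2 fold change -1.45, SE 0.16, adjusted p = 7.54e-09). On chow it was at 4.03 ± 0.614 CPM in KO livers, against 10.6 ± 1.28 CPM in control livers (log2 fold change -1.39, SE 0.14, adjusted p = 1.08e-09). Hepatocyte markers were abundant in every library, at 93498 to 109550 CPM for 9 genes in sum, and muscle markers, whose tissue uses many of the same enzymes, summed to at most 0.507 CPM. Fold changes are KO over control or HFD over chow on the log2 scale. Each test is edgeR's quasi-likelihood F test, its p-values were adjusted over all tested genes by the Benjamini-Hochberg method, and a gene is said to rise or fall only where the adjusted p was under 0.05. In 3 libraries against 3, an exact two-sided permutation test of a single value could not go below p = 0.1, so the test across all genes was used.

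Stretches of DNA bear on how some of these genes can be read. Acaa1a and Acaa1b, the peroxisomal thiolases, lie on chromosome 9 and their GENCODE M21 transcripts are 96.5% identical over 1272 coding bases. Of all 50-base stretches of the Acaa1b transcript 35.5% also occur in Acaa1a, and 34.0% the other way round. How reads that fit both genes were counted is not given, so the split between this pair is uncertain wherever it is described below. Coding bases 460 to 549 are shown for both, with the 13 bases that differ in capitals, because of all stretches of that length this is the one where most bases differ, so a read from here can be told apart.
Acaa1a: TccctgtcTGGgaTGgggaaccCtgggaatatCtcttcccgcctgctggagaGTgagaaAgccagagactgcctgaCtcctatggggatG
Acaa1b: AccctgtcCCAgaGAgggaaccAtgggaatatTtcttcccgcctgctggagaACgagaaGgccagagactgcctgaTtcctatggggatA

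Hadha and Hadhb, the subunits of the mitochondrial trifunctional protein, start 272 bases apart on opposite strands of chromosome 5 (RefSeq, GRCm38.p6). The 250 bases of that gap at chr5:30155003-30155252, plus strand, are shown because they lie before the start sites of both genes. Capitals mark GGGCGG, a GC box, searched on both strands. It occurs 2 times on the plus strand and 0 times on the minus strand, and 35.7% of all 32851 RefSeq promoter windows of 300 bases hold it on either strand.
Hadha and Hadhb: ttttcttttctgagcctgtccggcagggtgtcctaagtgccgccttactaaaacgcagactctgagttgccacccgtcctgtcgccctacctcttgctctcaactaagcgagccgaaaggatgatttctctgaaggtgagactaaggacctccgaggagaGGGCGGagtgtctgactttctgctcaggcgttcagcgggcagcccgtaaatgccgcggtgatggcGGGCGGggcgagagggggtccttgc

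The element bound by Ppara with its partner Rxra is known as a pair of AGGTCA half-sites with 1 base between them. It was searched for on both strands, with at most 2 mismatches over the half-sites. The windows ran from 250 bases before to 50 bases after RefSeq start sites. They were available here for 30 of the 37 genes (not for Vnn1, Decr1, Abcd2, Acat1, Acaa2, Crat or Hsd17b4). A match was found in 3 of 30 genes, against 1190 of 27025 genes in the table (4.40%). With at most 1 mismatch it was found in 0 of the 30 and in 0.644% of all genes. The matches were in Echs1, Etfa and Slc25a20, the last 12 bases into the transcribed side. Those in Echs1 (minus strand, chr7:140116462-140116534) and Etfa (minus strand, chr9:55512278-55512350) are shown with 30 bases to either side. Capitals mark the whole element, with its 2 mismatches and the base between the half-sites. In Etfa the match reads on the opposite strand to the gene.
Echs1: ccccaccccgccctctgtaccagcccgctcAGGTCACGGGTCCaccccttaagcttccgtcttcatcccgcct
Etfa: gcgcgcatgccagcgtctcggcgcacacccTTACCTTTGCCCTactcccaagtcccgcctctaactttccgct

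Most of the 37 genes were lower in KO than in control livers on either diet, by small amounts. On HFD 28 fell and 4 rose in KO livers, with a median log2 fold change of -0.19. In all 32 of the 37 were called, where the test called 32.4% of all genes. It called 15.6% of all genes lower and 16.7% higher in that comparison. On chow 29 fell and 3 rose, with a median of -0.16, where 31.2% of all genes were called, 15.3% as lower and 15.8% as higher. The median over all tested genes was -0.01 on HFD and 0.00 on chow. Well-expressed genes are called more often, so the same shares were taken over the 2762 genes averaging at least 50 CPM, a limit chosen after seeing the data. On HFD 26 of the 34 genes above that limit fell and 3 rose, against 24% lower and 39.9% higher over all such genes. On chow 28 of the 34 fell and 2 rose, against 36.7% lower and 22.9% higher. A change of 1.5-fold or more was reached by 4 of the genes called on HFD and 4 of those called on chow.

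**Figure D1:**
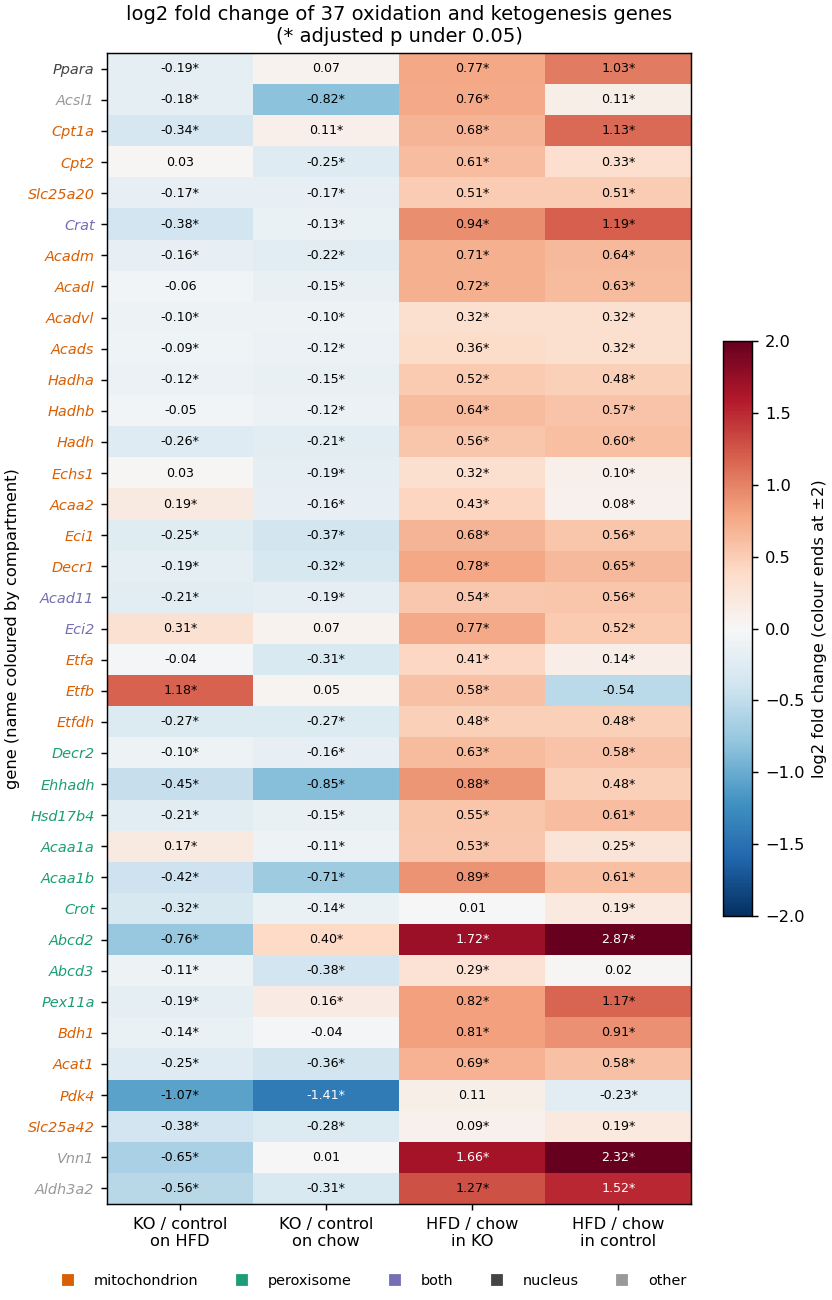
Log2 fold changes of the 37 genes (rows) in 4 comparisons (columns), coloured from blue (lower in KO, or on HFD) to red (higher), with an asterisk where the adjusted p was under 0.05. The 2 columns for KO over control are mostly pale blue (28 and 29 genes fell) and the 2 columns for HFD over chow are mostly red (35 and 34 genes rose).

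Ppara was higher on HFD than on chow in both genotypes, and on HFD it was lower in KO than in control livers. It was at 118, 116 and 120.4 CPM in KO livers on HFD, against 129.7, 135 and 139 CPM in control livers on HFD (log2 fold change -0.19, SE 0.04, adjusted p = 7.79e-05). The groups do not overlap on HFD. On chow Ppara was at 67.2, 70.5 and 70.0 CPM in KO livers, against 67.2, 66.0 and 64.3 CPM in control livers (log2 fold change 0.07, SE 0.04, adjusted p = 0.177), and the libraries with the lowest KO and the highest control value are level.

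Acsl1, the main long-chain acyl-CoA synthetase of liver, differed more by genotype on chow than on HFD. On chow Acsl1 was at 787, 799.5 and 802 CPM in KO livers, against 1411, 1405 and 1412 CPM in control livers (log2 fold change -0.82, SE 0.02, adjusted p = 5.72e-27). On HFD it was at 1371, 1351 and 1328 CPM in KO livers, against 1527, 1518 and 1528 CPM in control livers (log2 fold change -0.18, SE 0.02, adjusted p = 2.57e-09). KO livers on chow are thus the group that stands apart, and no other group reaches below 1328 CPM.

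Of the carnitine shuttle, Cpt1a turned its direction between diets. This outer-membrane enzyme sets the rate at which long chains enter mitochondria. It was at 486, 472 and 477 CPM in KO livers on HFD, against 617, 601 and 594 CPM in control livers on HFD, a fall (log2 fold change -0.34, SE 0.03, adjusted p = 1.66e-12). On chow Cpt1a was at 299, 295 and 301 CPM in KO livers, against 285, 269 and 277 CPM in control livers, a rise (log2 fold change 0.11, SE 0.03, adjusted p = 0.00173) that was 0.06 when each library's trend on transcript length and GC content was removed. The groups do not overlap on either diet. Cpt2, its inner-membrane partner, was at 218 ± 3.39 CPM in KO livers on HFD and 214 ± 2.06 CPM in control livers (log2 fold change 0.03, SE 0.03, adjusted p = 0.546), and fell in chow-fed KO livers (log2 fold change -0.25, SE 0.03, adjusted p = 9.00e-08). The ratio of Cpt1a to Cpt2 counts was 2.19 ± 0.0313 in KO livers on HFD and 2.83 ± 0.0770 in control livers on HFD. On chow it was 2.09 ± 0.0250 in KO livers and 1.63 ± 0.0220 in control livers. The order of the genotypes in this ratio is opposite on the 2 diets, and the 3 libraries of each group stay apart from those of the other genotype.

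Slc25a20, the translocase that exchanges carnitine esters for carnitine, fell by the same amount on both diets (log2 fold change -0.17 on HFD and -0.17 on chow, SE 0.03 each). Crat, which moves acetyl groups onto carnitine, was at 94.0, 93.2 and 90.8 CPM in KO livers on HFD, against 123, 121 and 118 CPM in control livers on HFD (log2 fold change -0.38, SE 0.04, adjusted p = 8.78e-10). On chow Crat was at 47.4, 48.9 and 49.0 CPM in KO livers, against 56.4, 50.4 and 52.2 CPM in control livers (log2 fold change -0.13, SE 0.04, adjusted p = 0.0259). The chow call did not hold without control replicate 1 (log2 fold change -0.08, adjusted p = 0.201) or without KO replicate 1 (-0.11, adjusted p = 0.0933), nor by DESeq2's Wald test (adjusted p = 0.0526) or with the 2 groups fitted alone (adjusted p = 0.0553). Crat overlaps Dolpp1 on the other strand, and whether counting used strand is not given.

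**Figure D2:**
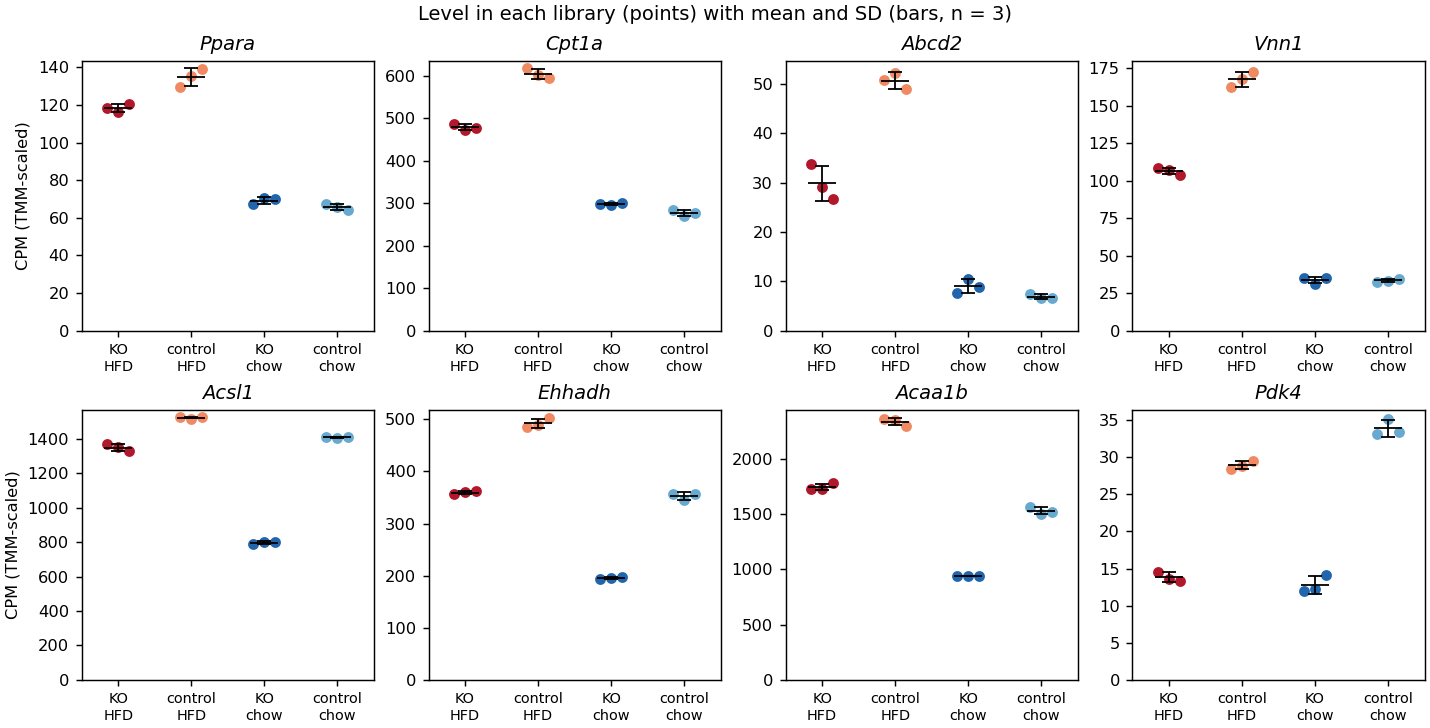
CPM of 8 genes in each of the 12 libraries (points, 3 per group), with the group mean and SD (black bars) and a linear axis from 0. Cpt1a and Abcd2 are lower in KO than in control livers on HFD and higher on chow, Acsl1, Ehhadh and Acaa1b are lowest in KO livers on chow, and Pdk4 is lower in KO livers on both diets.

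The 11 enzymes of the mitochondrial cycle moved little by genotype and mostly one way. On chow all 11 fell in KO livers, with log2 fold changes of -0.37 to -0.10. On HFD 7 fell, 1 rose and 3 did not pass the test, within -0.26 to 0.19. Among the acyl-CoA dehydrogenases, which start each cycle, Acadm (medium chains) fell in KO livers on HFD (log2 fold change -0.16, SE 0.02, adjusted p = 2.74e-06) and in chow-fed KO livers (log2 fold change -0.22, SE 0.02, adjusted p = 5.63e-09). Acadvl (very long chains) fell by 0.10 on both diets, and Acads (short chains) by 0.09 on HFD and 0.12 on chow. Without KO replicate 1 on HFD the Acadvl value was -0.08 (adjusted p = 0.103). The Acads call on HFD was lost with no count filter (-0.08, adjusted p = 0.0971) and with the 2 groups fitted alone (-0.09, adjusted p = 0.0534), and leaving out any HFD library other than KO replicate 1 put Acads at an adjusted p of 0.0557 to 0.142. On chow, leaving out KO replicate 1, KO replicate 2 or control replicate 1 put Acadvl at an adjusted p of 0.0613 to 0.115. Acadl (long chains) fell on chow and did not pass the test on HFD (log2 fold change -0.06, SE 0.03, adjusted p = 0.195), where it passed with length and GC trends removed (-0.08, adjusted p = 0.0292).

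Eci1, an enoyl-CoA isomerase for unsaturated chains, had the largest fall of the mitochondrial cycle on chow. It was at 101, 104 and 106 CPM in KO livers on chow, against 133, 133 and 135 CPM in chow-fed control livers (log2 fold change -0.37, SE 0.03, adjusted p = 1.54e-10). On HFD it was at 165, 161 and 171 CPM in KO livers, against 202, 196 and 191 CPM in control livers (log2 fold change -0.25, SE 0.03, adjusted p = 2.12e-07). KO libraries lie below control libraries on both diets. Decr1, the reductase for chains with a pair of double bonds, also fell on both diets (-0.19 on HFD and -0.32 on chow), as did Hadh, a hydroxyacyl-CoA dehydrogenase (-0.26 on HFD and -0.21 on chow).

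Acaa2, the mitochondrial thiolase and after Acaa1b the most abundant of the 37 per kilobase, rose in KO livers on HFD, where most of the 37 fell. It was at 1043, 1023 and 1028 CPM in KO livers on HFD, against 915, 909 and 893 CPM in control livers on HFD (log2 fold change 0.19, SE 0.02, adjusted p = 1.15e-08). On chow Acaa2 was at 773, 758 and 772 CPM in KO livers, against 872, 834 and 864 CPM in control livers (log2 fold change -0.16, SE 0.02, adjusted p = 3.25e-07). The groups do not overlap on either diet, and the order of the genotypes is opposite. With length and GC trends removed the HFD value was 0.11. Echs1, the enoyl-CoA hydratase, was at 265 ± 8.42 CPM in KO livers on HFD and 259 ± 3.15 CPM in control livers on HFD, and fell in chow-fed KO livers (log2 fold change -0.19, SE 0.03, adjusted p = 1.88e-05). It overlaps Paox on the other strand.

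Hadha and Hadhb, which start on either side of the stretch printed above, differed little by genotype in their ratio. Hadha counts over Hadhb counts were 2.40 ± 0.115 in KO livers on HFD and 2.51 ± 0.139 in control livers on HFD. On chow they were 2.60 ± 0.127 in KO livers and 2.66 ± 0.0105 in control livers. The ratios of the libraries overlap between genotypes on both diets. Hadha fell in KO livers on HFD (log2 fold change -0.12, SE 0.02, adjusted p = 1.80e-04, and -0.06 with length and GC trends removed) and in chow-fed KO livers (log2 fold change -0.15, SE 0.02, adjusted p = 5.32e-06). Hadhb did not pass on HFD (log2 fold change -0.05, SE 0.04, adjusted p = 0.279), and its fall on chow (-0.12) did not hold without KO replicate 3 (-0.09, adjusted p = 0.104) or with length and GC trends removed (-0.07, adjusted p = 0.0773).

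Acad11 and Eci2 act in both compartments and differed in direction. Eci2, an isomerase for unsaturated chains, was at 210.2, 218 and 218 CPM in KO livers on HFD, against 174, 175 and 173 CPM in control livers on HFD (log2 fold change 0.31, SE 0.03, adjusted p = 4.45e-10). On chow Eci2 was at 127, 127 and 126 CPM in KO livers, against 121, 118 and 124 CPM in control livers (log2 fold change 0.07, SE 0.03, adjusted p = 0.115). The HFD groups are far apart, while the chow groups differ by a few CPM. With length and GC trends removed Eci2 also rose on chow (0.09, adjusted p = 0.0218). Acad11, an acyl-CoA dehydrogenase family member, fell on both diets (-0.21 on HFD and -0.19 on chow).

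The electron transfer genes pass electrons from the dehydrogenases to the respiratory chain. Etfdh, the oxidoreductase that hands them to ubiquinone, fell by the same amount on both diets (-0.27 on HFD and -0.27 on chow, SE 0.03 each). Etfa, a subunit of the carrier flavoprotein, was at 386 ± 2.70 CPM in KO livers on HFD and 396 ± 4.35 CPM in control livers on HFD (log2 fold change -0.04, SE 0.03, adjusted p = 0.350), and fell in chow-fed KO livers (log2 fold change -0.31, SE 0.03, adjusted p = 5.53e-11). With length and GC trends removed Etfa also fell on HFD (-0.12, adjusted p = 3.00e-04). Etfb, the other subunit, was listed far below its partner, at 2.31, 3.17 and 3.15 CPM in KO livers on HFD, against 1.49, 1.304 and 1.03 CPM in control livers on HFD (log2 fold change 1.18, SE 0.23, adjusted p = 1.54e-04). On chow Etfb was at 1.77, 2.43 and 1.52 CPM in KO livers, against 1.90, 1.52 and 2.13 CPM in control livers (log2 fold change 0.05, SE 0.24, adjusted p = 0.900). These rest on 167 counts over 3 KO libraries and 82 counts over 3 control libraries on HFD. Etfb overlaps a same-strand protein-coding gene model, Gm45233, that is listed at 0 counts in all 12 libraries, and the part of that overlap in the low level was not tested.

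Of the 9 peroxisomal genes 8 fell and 1 rose in KO livers on HFD, and 7 fell and 2 rose on chow. Ehhadh, the bifunctional hydratase and dehydrogenase, was at 356, 359.6 and 363 CPM in KO livers on HFD, against 486, 488 and 502 CPM in control livers on HFD (log2 fold change -0.45, SE 0.03, adjusted p = 9.66e-16). On chow Ehhadh was at 194, 195 and 198 CPM in KO livers, against 357, 345 and 357 CPM in control livers (log2 fold change -0.85, SE 0.03, adjusted p = 5.63e-23). KO livers on HFD are thus level with control livers on chow. Hsd17b4, which catalyses the same pair of steps with the other stereochemistry, fell on both diets (-0.21 on HFD and -0.15 on chow), as did Decr2, a peroxisomal dienoyl-CoA reductase (-0.10 on HFD and -0.16 on chow).

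The thiolases Acaa1a and Acaa1b went opposite ways on HFD. Acaa1b was at 1729.9, 1732 and 1780.3 CPM in KO livers on HFD, against 2361, 2357 and 2301 CPM in control livers on HFD (log2 fold change -0.42, SE 0.02, adjusted p = 1.31e-18). Acaa1a was at 256, 266 and 269 CPM in KO livers on HFD, against 229, 237 and 235 CPM in control livers on HFD (log2 fold change 0.17, SE 0.03, adjusted p = 2.38e-05), and its value was 0.10 with length and GC trends removed. KO and control libraries do not overlap in either gene. On chow Acaa1b was at 938, 939 and 943 CPM in KO livers, against 1571, 1507 and 1524 CPM in control livers (log2 fold change -0.71, SE 0.02, adjusted p = 8.32e-25). Acaa1a fell in chow-fed KO livers too (log2 fold change -0.11, SE 0.03, adjusted p = 0.00630), a call that did not hold without control replicate 1 (-0.09, adjusted p = 0.0571). The ratio of Acaa1b to Acaa1a counts was 6.64 ± 0.127 in KO livers on HFD and 10.02 ± 0.259 in control livers on HFD, and 5.17 ± 0.0555 in chow-fed KO livers and 7.83 ± 0.125 in control livers on chow. Since the transcripts share many 50-base stretches, the pair was also summed, at 2011 ± 33.7 CPM in KO livers on HFD against 2573 ± 32.7 CPM in control livers on HFD. On chow the sum was 1122 ± 2.68 CPM in KO livers against 1729.9 ± 38.1 CPM in control livers. No KO library reaches the sum of any control library on its diet. Acaa1a also overlaps Myd88 on the other strand.

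Of the 3 peroxisomal membrane genes, Abcd2 and Pex11a turned their direction between diets. Abcd2, a transporter of very long-chain acyl-CoA, was at 33.7, 29.1 and 26.8 CPM in KO livers on HFD, against 50.8, 52.3 and 48.9 CPM in control livers on HFD (log2 fold change -0.76, SE 0.07, adjusted p = 1.32e-10). On chow Abcd2 was at 7.65, 10.5 and 8.94 CPM in KO livers, against 7.43, 6.68 and 6.64 CPM in control livers (log2 fold change 0.40, SE 0.12, adjusted p = 0.00791). The groups do not overlap on either diet, but the chow call did not hold without KO replicate 2, where the value was 0.27 (adjusted p = 0.113). Pex11a, which promotes division of peroxisomes, was at 175, 166 and 185 CPM in KO livers on HFD, against 199, 200.4 and 199 CPM in control livers on HFD (log2 fold change -0.19, SE 0.03, adjusted p = 6.99e-05). On chow Pex11a was at 104, 96.4 and 99.0 CPM in KO livers, against 90.2, 87.2 and 89.5 CPM in control livers (log2 fold change 0.16, SE 0.04, adjusted p = 9.69e-04). Pex11a shares its locus with the antisense gene Gm44706, which had 62 to 231 counts in a library. Pex11a and Abcd2, like Cpt1a, are lower in KO livers on HFD and higher in KO livers on chow.

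Abcd3, a second peroxisomal acyl-CoA transporter, did not share that pattern. It was at 439, 427 and 424 CPM in KO livers on chow, against 564, 560.3 and 556 CPM in chow-fed control livers (log2 fold change -0.38, SE 0.02, adjusted p = 1.57e-14). On HFD it was at 535, 535 and 509 CPM in KO livers, against 566, 566 and 569.7 CPM in control livers (log2 fold change -0.11, SE 0.02, adjusted p = 6.25e-04). The HFD call did not hold with length and GC trends removed (-0.04, adjusted p = 0.108). Crot makes carnitine esters of the shortened chains so that they can leave the peroxisome. It fell in KO livers on HFD (log2 fold change -0.32, SE 0.02, adjusted p = 5.45e-13) and in chow-fed KO livers (log2 fold change -0.14, SE 0.02, adjusted p = 1.75e-05).

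The enzymes of ketone body formation among the 37 were lower in KO than in control livers on HFD. Acat1, which joins acetyl-CoA units, was at 582 ± 16.7 CPM in KO livers on HFD and 694 ± 17.1 CPM in control livers on HFD (log2 fold change -0.25, SE 0.03, adjusted p = 2.37e-09), and fell in chow-fed KO livers (log2 fold change -0.36, SE 0.03, adjusted p = 6.09e-13). Bdh1, which reduces acetoacetate to beta-hydroxybutyrate, was at 462 ± 8.43 CPM in KO livers on HFD and 508 ± 4.49 CPM in control livers on HFD (log2 fold change -0.14, SE 0.03, adjusted p = 7.25e-04). On chow Bdh1 was at 252, 255 and 282 CPM in KO livers, against 273, 267 and 271 CPM in control livers (log2 fold change -0.04, SE 0.03, adjusted p = 0.392). KO replicate 3 lies above the other KO libraries there, and without it Bdh1 fell (-0.09, adjusted p = 0.0147), as it did with length and GC trends removed (-0.09, adjusted p = 0.0159).

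Pdk4, the kinase that switches off pyruvate dehydrogenase, had the largest fall by genotype of the 37 on each diet. It was at 14.6, 13.5 and 13.4 CPM in KO livers on HFD, against 28.4, 28.9 and 29.5 CPM in control livers on HFD (log2 fold change -1.07, SE 0.07, adjusted p = 2.85e-14). On chow Pdk4 was at 11.96, 12.2 and 14.2 CPM in KO livers, against 33.1, 35.2 and 33.4 CPM in control livers (log2 fold change -1.41, SE 0.07, adjusted p = 1.34e-17). No KO library overlaps a control library. Its level is low in all groups, and it is among the 3 lowest of the 37 per kilobase. Slc25a42, which carries coenzyme A into mitochondria, fell in KO livers on HFD (log2 fold change -0.38, SE 0.03, adjusted p = 4.44e-11) and in chow-fed KO livers (log2 fold change -0.28, SE 0.03, adjusted p = 4.26e-08).

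Vnn1 and Aldh3a2 act next to the pathway. Vnn1, a pantetheinase that breaks down a coenzyme A precursor, was at 108, 107 and 104 CPM in KO livers on HFD, against 162, 168 and 173 CPM in control livers on HFD (log2 fold change -0.65, SE 0.04, adjusted p = 2.23e-15). On chow Vnn1 was at 35.2, 31.2 and 35.1 CPM in KO livers, against 32.7, 33.4 and 34.5 CPM in control livers (log2 fold change 0.01, SE 0.05, adjusted p = 0.906), and the chow groups overlap. Aldh3a2, which oxidises fatty aldehydes, was at 731, 712 and 728 CPM in KO livers on HFD, against 1058, 1059.7 and 1077 CPM in control livers on HFD (log2 fold change -0.56, SE 0.02, adjusted p = 8.68e-20). On chow Aldh3a2 was at 296, 307 and 298 CPM in KO livers, against 377, 367 and 373 CPM in control livers (log2 fold change -0.31, SE 0.02, adjusted p = 8.47e-13). Aldh3a2 was thus lower in KO than in control livers on both diets, and Vnn1 on HFD.

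Set side by side, 22 of the 37 genes fell in KO livers on both diets. In KO over control Abcd2, Cpt1a and Pex11a fell on HFD and rose on chow, and Acaa2 and Acaa1a rose on HFD and fell on chow. Vnn1, Bdh1 and Ppara passed the test as lower on HFD and not on chow. Acadl, Etfa, Cpt2, Echs1 and Hadhb passed it as lower on chow and not on HFD. Eci2 and Etfb rose on HFD and did not pass on chow. With length and GC trends removed, Acadl and Etfa also passed as lower on HFD, Bdh1 as lower and Eci2 as higher on chow, and Hadhb did not pass on chow. The genotype comparisons on HFD and chow share no libraries, and across the 37 genes their log2 fold changes had Pearson's r = 0.37 and Spearman's rho = 0.25, given as a description since the genes share libraries and pathway.

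**Figure D3:**
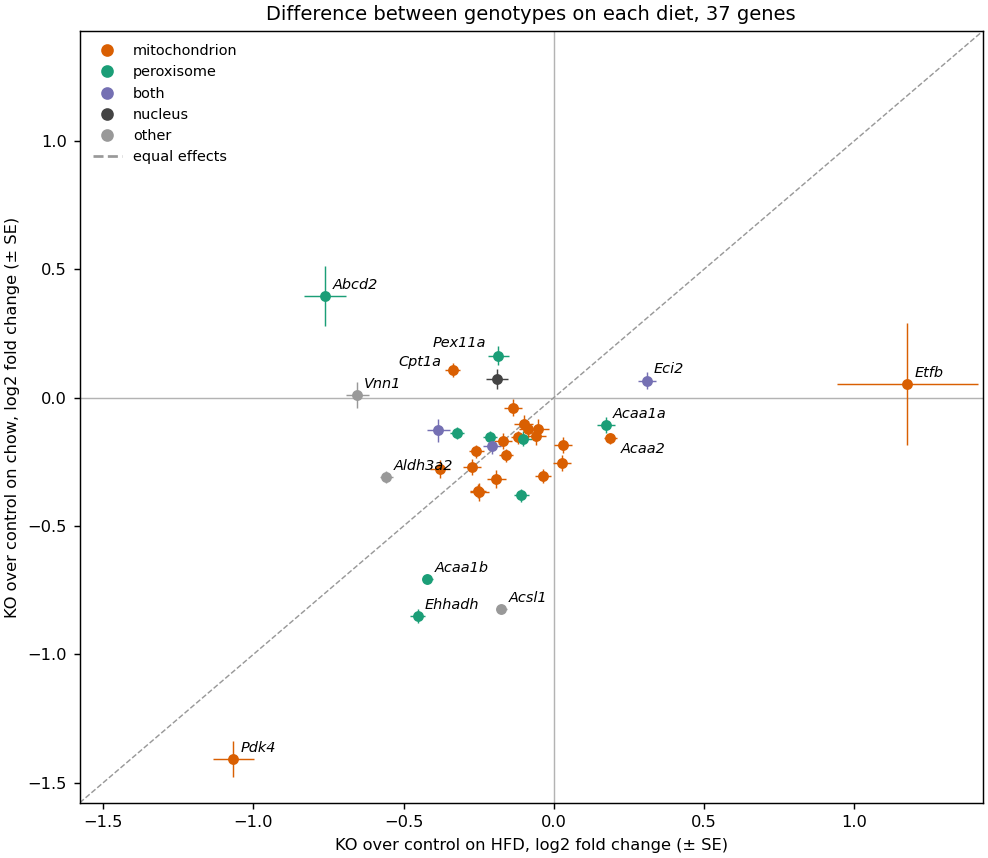
Log2 fold change of KO over control on HFD (horizontal) against that on chow (vertical) for the 37 genes, with SE bars, coloured by compartment; the dashed line marks equal values. Most points lie below 0 on both axes, Abcd2, Cpt1a and Pex11a lie at the upper left, Acsl1, Ehhadh and Acaa1b lie below the line, and Etfb lies far right with wide bars.

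Nearly all of the genes rose on HFD in both genotypes. In KO livers 35 rose and 0 fell, with a median log2 fold change of 0.63, where 36.6% of all genes were called, 18.5% as higher and 18.1% as lower. In control livers 34 rose and 1 fell, with a median of 0.56, where 37.7% of all genes were called, 18.8% as higher and 18.9% as lower. Of the 34 genes averaging at least 50 CPM, 33 rose in KO livers and 33 in control livers, where 46.6% and 32.7% of all such genes did and 20.7% and 34.9% fell. The count of 0 is edgeR's, all 37 log2 fold changes were above 0 in that comparison, so 0 also fell at an unadjusted p under 0.05, and DESeq2's Wald test and limma-voom likewise called 0 lower. In both genotypes 33 of the 37 rose, and a rise of at least 1.5-fold was reached by 20 genes in KO livers and 14 in control livers. The 2 genes that did not pass in KO livers were Crot (log2 fold change 0.01, SE 0.02, adjusted p = 0.863) and Pdk4 (log2 fold change 0.11, SE 0.08, adjusted p = 0.281). In control livers Pdk4 fell (log2 fold change -0.23, SE 0.06, adjusted p = 0.00316), and Abcd3 (log2 fold change 0.02, SE 0.02, adjusted p = 0.584) and Etfb (log2 fold change -0.54, SE 0.25, adjusted p = 0.0903) did not pass.

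The same few genes led the rise in both genotypes, with a larger rise in control livers. Abcd2 rose most in KO livers (log2 fold change 1.72, SE 0.09, adjusted p = 4.67e-17) and in control livers (log2 fold change 2.87, SE 0.09, adjusted p = 1.94e-23). Vnn1 came next in KO livers (log2 fold change 1.66, SE 0.04, adjusted p = 6.08e-25) and in control livers (log2 fold change 2.32, SE 0.04, adjusted p = 1.49e-29). Aldh3a2 followed in KO livers (log2 fold change 1.27, SE 0.02, adjusted p = 1.08e-29) and in control livers (log2 fold change 1.52, SE 0.02, adjusted p = 4.50e-32). No HFD library of these 3 genes overlaps a chow library of the same genotype. Crat was next, at 0.94 in KO livers and 1.19 in control livers. In KO livers Acaa1b (log2 fold change 0.89, SE 0.02, adjusted p = 6.16e-28) and Ehhadh (log2 fold change 0.88, SE 0.03, adjusted p = 1.62e-23) completed the largest 6, and in control livers Pex11a (log2 fold change 1.17, SE 0.04, adjusted p = 2.85e-23) and Cpt1a (log2 fold change 1.13, SE 0.03, adjusted p = 7.13e-27). Ppara itself rose in KO livers (log2 fold change 0.77, SE 0.04, adjusted p = 7.22e-18) and in control livers (log2 fold change 1.03, SE 0.04, adjusted p = 1.74e-21).

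The smallest rises were in KO livers those of Slc25a42 (log2 fold change 0.09, SE 0.03, adjusted p = 0.0374) and Abcd3 (log2 fold change 0.29, SE 0.02, adjusted p = 9.78e-12), and in control livers those of Acaa2 (log2 fold change 0.08, SE 0.02, adjusted p = 0.00265), Echs1 (log2 fold change 0.10, SE 0.03, adjusted p = 0.00876) and Acsl1 (log2 fold change 0.11, SE 0.02, adjusted p = 6.94e-06). Slc25a42 in KO livers lost its call without KO replicate 2 or 3 on HFD, or without KO replicate 1 or 2 on chow (adjusted p = 0.123 to 0.157), and with the 2 groups fitted alone (adjusted p = 0.0764). Etfb also rose in KO livers (log2 fold change 0.58, SE 0.22, adjusted p = 0.0378) and lost its call without KO replicate 2 or 3 on HFD, or without KO replicate 1 or 3 on chow (adjusted p = 0.105 to 0.169), and by DESeq2's Wald test (adjusted p = 0.0761). Echs1 in control livers lost it without control replicate 1 on chow (0.08, adjusted p = 0.0660). The diet comparisons in KO and in control livers share no libraries, and over the 37 genes their log2 fold changes had r = 0.86 and rho = 0.79, again as a description.

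**Figure D4:**
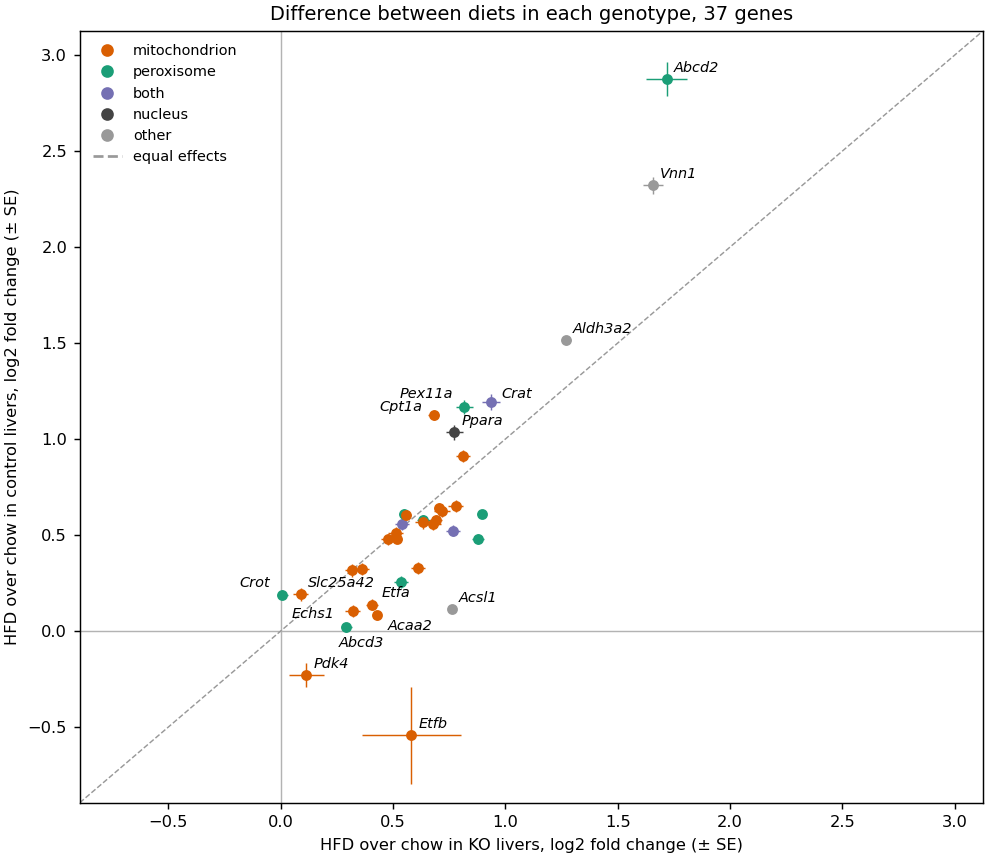
Log2 fold change of HFD over chow in KO livers (horizontal) against that in control livers (vertical) for the 37 genes, with SE bars, coloured by compartment; the dashed line marks equal values. All points but Pdk4 and Etfb lie above 0 on both axes; Abcd2, Vnn1, Cpt1a and Pex11a lie above the line and Acsl1 and Acaa2 below it.

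The response to diet differed between genotypes in 22 of the 37 genes by the test of the interaction, with 14 higher and 8 lower, where 29.8% of all genes were called, 15.2% as higher and 14.7% as lower. A positive value means that the log2 fold change of HFD over chow was higher in KO livers, be it a larger rise or a smaller fall. Of the 34 genes averaging at least 50 CPM, 12 were called higher and 7 lower, where 40.1% and 18.5% of all such genes were. Against those shares both counts are near the background. The most positive were Etfb (1.12, SE 0.33, adjusted p = 0.0101), Acsl1 (0.65, SE 0.03, adjusted p = 1.23e-19), Ehhadh (0.40, SE 0.04, adjusted p = 2.15e-10), Acaa2 (0.35, SE 0.03, adjusted p = 4.44e-11) and Pdk4 (0.34, SE 0.10, adjusted p = 0.00877). In Acsl1 the diet effect was 0.76 in KO livers and 0.11 in control livers. In Pdk4 it was 0.11 in KO livers, where it did not pass the test, and -0.23 in control livers. In Etfb it was 0.58 in KO livers and -0.54 in control livers, where it did not pass.

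The most negative interactions, a smaller rise in KO livers, were those of Abcd2 (-1.16, SE 0.13, adjusted p = 2.64e-08), Vnn1 (-0.67, SE 0.06, adjusted p = 3.61e-10), Cpt1a (-0.45, SE 0.04, adjusted p = 1.55e-11), Pex11a (-0.35, SE 0.05, adjusted p = 2.14e-06) and Ppara (-0.26, SE 0.05, adjusted p = 2.49e-04). Crat, Aldh3a2 and Crot were the other three called lower. Crat lost its call with length and GC trends removed (-0.13, adjusted p = 0.0858). On the other side Decr1 (0.13, adjusted p = 0.0418) and Acat1 (0.11, adjusted p = 0.0248) did not always keep theirs. Decr1 lost it without KO replicate 1 or control replicate 1 or 2, on HFD or on chow (adjusted p = 0.0898 to 0.135), and with no count filter (0.0503), DESeq2's Wald test (0.0558) or the replicate block (0.0539). Acat1 lost it without KO or control replicate 1 or 2 on HFD, or without KO or control replicate 3 on chow (adjusted p = 0.0616 to 0.0822). Hadha (0.11, adjusted p = 0.0103) and Hadh (-0.10, adjusted p = 0.0152) gained an interaction call with length and GC trends removed. Eci1 gained one with limma-voom (0.12, adjusted p = 0.0481) and without KO replicate 2 on HFD, control replicate 1 on HFD or KO replicate 3 on chow (adjusted p = 0.0362 to 0.0461). Without KO replicate 1 on chow Acadl (0.13, adjusted p = 0.0424) and Bdh1 (-0.13, adjusted p = 0.0332) gained one.

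Mitochondrial and peroxisomal genes were compared by their medians and sums, with no test since the genes share libraries. In KO over control on HFD the median log2 fold change was -0.14 for the 21 mitochondrial genes (2 rose, 14 fell) and -0.21 for the 9 peroxisomal genes (1 rose, 8 fell). On chow it was -0.19 for mitochondrial genes (1 rose, 18 fell) and -0.15 for peroxisomal genes (2 rose, 7 fell). The medians of the compartments are thus within 0.08 of each other, in opposite order on the 2 diets. In HFD over chow they were 0.56 for mitochondrial and 0.63 for peroxisomal genes in KO livers, and 0.48 and 0.58 in control livers.

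Acaa1b alone makes up a large part of the peroxisomal sum, so sums are given with and without it. The mitochondrial sum was 6732 ± 61.6 CPM in KO livers on HFD and 7322 ± 22.6 CPM in control livers on HFD, and 4606 ± 19.8 CPM in chow-fed KO livers and 5271 ± 57.9 CPM in control livers on chow. The peroxisomal sum was 4736 ± 22.2 CPM in KO livers on HFD and 5819 ± 10.05 CPM in control livers on HFD, and 3189 ± 20.5 CPM in chow-fed KO livers and 4212 ± 53.8 CPM in control livers on chow. KO sums lie below control sums in every library on the same diet. The mitochondrial over the peroxisomal sum was 1.42 ± 0.0130 in KO livers on HFD and 1.26 ± 0.00209 in control livers on HFD, and 1.44 ± 0.0123 in chow-fed KO livers and 1.25 ± 0.00891 in control livers on chow. Without Acaa1b, left out after seeing the data, that ratio was 2.25 in KO livers and 2.10 in control livers on HFD, and 2.05 in KO livers and 1.97 in control livers on chow. The genotypes keep their order and come closer.

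**Figure D5:**
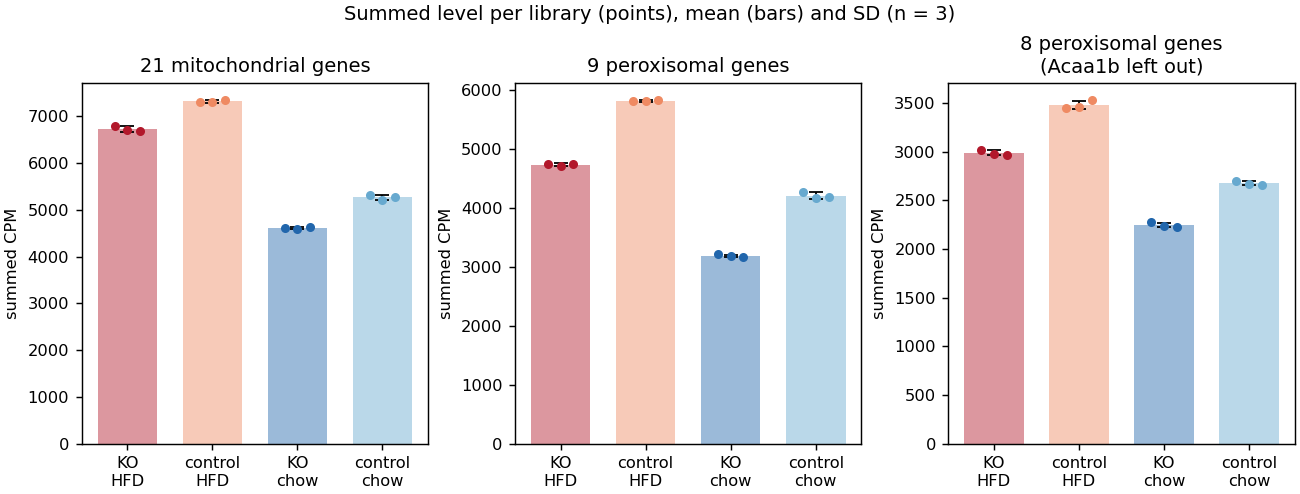
Summed CPM of the 21 mitochondrial genes, the 9 peroxisomal genes and the 8 peroxisomal genes other than Acaa1b in each library (points), with group means (bars from 0) and SD. KO livers lie below control livers on the same diet in all 3 panels, and HFD livers lie above chow livers of the same genotype.

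As a share of all counts the 37 genes made up 1.39% to 1.40% in KO livers on HFD, against 1.72% to 1.73% in control livers on HFD. On chow they made up 0.925% to 0.933% in KO livers, against 1.15% to 1.16% in control livers. Levels between genes were compared as CPM per kilobase of the main coding transcript. By that measure Acaa1b was highest in all 4 groups, at 1034 CPM per kilobase in KO livers on HFD and 1385 in control livers on HFD, and at 557 in chow-fed KO livers and 908 in control livers on chow. Acaa2 was next in all 4 groups, at 680.3 CPM per kilobase in KO livers on HFD and 597 in control livers on HFD, and at 506 in chow-fed KO livers and 565 in control livers on chow. The lowest 3 in every group were Etfb, Pdk4 and Abcd2, at 1.25 to 9.73 CPM per kilobase. Ppara, a transcription factor, stood at 19.3 to 39.5 CPM per kilobase.

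Genes around the 37 were read from lists of the same pathways. In KO over control 15.6% of all genes were called lower and 16.7% higher on HFD, and 15.3% and 15.8% on chow. Of genes averaging at least 50 CPM 24% were called lower and 39.9% higher on HFD, and 36.7% and 22.9% on chow. In HFD over chow 18.5% of all genes were called higher in KO livers and 18.8% in control livers. A count near these shares says little about its list. Of 10 other ketone body genes 7 fell in KO livers on HFD and 3 did not pass the test, with a median of -0.25, and 6 fell and 2 rose on chow. The monocarboxylate carriers Slc16a7 (-0.57) and Slc16a1 (-0.49), which move ketone bodies across membranes, fell in KO livers on HFD.

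Of 28 other known Ppara targets 15 fell and 7 rose in KO livers on HFD, and 17 fell and 6 rose on chow, with medians of -0.19 and -0.26. In HFD over chow 24 of them rose in KO livers and 25 in control livers. Cyp4a14, a fatty acid hydroxylase, was at 1243 ± 15.8 CPM in KO livers on HFD and 1221 ± 15.9 CPM in control livers on HFD (log2 fold change 0.03, SE 0.02, adjusted p = 0.406). On chow it was at 234 ± 5.45 CPM in KO livers and 100 ± 1.02 CPM in control livers (log2 fold change 1.23, SE 0.02, adjusted p = 1.92e-28), a rise like those of Abcd2, Cpt1a and Pex11a in direction. Plin2, a lipid droplet coat protein, fell in KO livers on HFD (-0.54) and chow (-0.25), and Cyp8b1, a bile acid hydroxylase, on HFD (-0.51) and chow (-1.04). Por, the electron donor of cytochromes P450, rose on HFD (0.98) and chow (0.55). Cyp4a12a, another hydroxylase, rose in KO livers on HFD (0.16) and fell on chow (-0.85).

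Among 20 partners and co-regulators of Ppara 5 rose and 3 fell in KO livers on HFD, and 3 rose and 3 fell on chow. These counts are near the shares over all genes. Lpin1, a phosphatidate phosphatase that also acts as a co-activator, was at 557 ± 5.61 CPM in KO livers on HFD and 313 ± 8.04 CPM in control livers on HFD (log2 fold change 0.83, SE 0.03, adjusted p = 6.46e-23). On chow it was at 369 ± 3.23 CPM in KO livers and 95.9 ± 0.0946 CPM in control livers (log2 fold change 1.95, SE 0.03, adjusted p = 2.45e-32). Rxra, the receptor that pairs with Ppara, rose on HFD (0.33) and chow (0.26), and Hnf4a, a hepatocyte nuclear receptor, by 0.19 and 0.29. Ppard, a relative of Ppara, fell in HFD over chow in KO livers (-0.99) and in control livers (-1.03), opposite to Ppara.

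Of 35 other peroxisomal genes 9 fell and 11 rose in KO livers on HFD, and 22 fell and 13 did not pass the test on chow, with medians of 0.01 and -0.20. The HFD counts are near the shares of genes averaging at least 50 CPM. Nudt7, a hydrolase of coenzyme A, was at 287 ± 1.21 CPM in KO livers on HFD and 141 ± 1.52 CPM in control livers on HFD (log2 fold change 1.03, SE 0.03, adjusted p = 4.52e-25), and fell on chow (-0.36). Phyh, which starts the breakdown of phytanic acid, likewise rose in KO over control on HFD (0.29) and fell on chow (-0.24). In HFD over chow Nudt7 fell in KO livers (-0.33) and more in control livers (-1.72). Phyh rose in KO livers (0.42) and fell in control livers (-0.10) in that comparison. Ech1, an isomerase of dienoyl-CoA, fell in KO over control on chow (-0.20). Its fall in KO livers on HFD (-0.07, adjusted p = 0.0473) was not called under every alternative (adjusted p up to 0.256).

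Of 18 other mitochondrial oxidation genes 6 fell and 5 rose in KO livers on HFD, and 13 fell and 5 did not pass on chow. Acot2, a mitochondrial acyl-CoA thioesterase, fell in KO livers on HFD (log2 fold change -0.96, SE 0.11, adjusted p = 1.56e-08) and chow (log2 fold change -1.09, SE 0.15, adjusted p = 7.88e-07). Ivd, of leucine breakdown, rose in KO livers on HFD (0.21) and fell on chow (-0.38). Of 21 other genes of fatty acid activation, binding and carnitine handling 4 fell and 6 rose on HFD, and 10 fell and 2 rose on chow. Slc27a5, a bile acid and fatty acid CoA ligase, rose in KO livers on HFD (0.25) and fell on chow (-0.21). Acss3, a short-chain acyl-CoA synthetase, fell in KO livers on HFD (-0.95) and chow (-1.39). Of 18 tricarboxylic acid cycle enzymes 9 fell and 2 rose in KO livers on HFD, and 16 fell and 2 did not pass on chow, with Idh2, an isocitrate dehydrogenase, at -0.32 and -0.22. Of 15 genes that control fatty acid entry and pyruvate oxidation 6 fell and 3 rose on HFD, and 8 fell and 1 rose on chow. Pdha1, the pyruvate dehydrogenase subunit that Pdk4 phosphorylates, fell by 0.32 on HFD and 0.30 on chow.

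Summed markers of other cell types also differed between the groups. In bulk liver, fewer cells of a type and less RNA per cell cannot be told apart. Neutrophil markers (10 genes) summed to 74.8 to 81.4 CPM in KO livers on HFD, against 21.1 to 23.1 CPM in control livers on HFD, where Mpo and Ly6g were at 0. On chow they summed to 477 to 503 CPM in KO livers, against 52.2 to 56.1 CPM in control livers. Of 9 such genes tested 6 rose in KO livers on HFD and 8 on chow. Macrophage markers (12 genes) summed to 209 to 221 CPM in KO livers on HFD, against 147 to 152 CPM in control livers on HFD. On chow they summed to 336 to 351 CPM in KO livers, against 132 to 136 CPM in control livers. Of the 12 macrophage markers 7 rose in KO livers on HFD and 12 on chow. Stellate cell markers summed to 239.8 to 258 CPM in KO livers and 285 to 298 CPM in control livers on HFD, and to 237 to 247 CPM in KO livers and 179 to 189 CPM in control livers on chow. Of 10 stellate markers tested 6 fell in KO livers on HFD and 7 rose on chow. Cholangiocyte markers summed to 52.9 to 58.1 CPM in KO livers and 71.2 to 74.0 CPM in control livers on HFD, and to 194 to 207 CPM in KO livers and 82.0 to 88.9 CPM in control livers on chow. Only 2 of 8 tested fell in KO livers on HFD and only 2 of 8 rose on chow, and the others did not pass the test. Adipocyte markers (10 genes) summed to 3688 to 3865 CPM in KO livers on HFD, against 4141 to 4152 CPM in control livers on HFD, and to 3124 to 3164 CPM in KO livers on chow, against 5483 to 5561 CPM in control livers on chow. Of 5 tested 1 rose and 2 fell in KO livers on each diet, and Lep and Ucp1 were at 0 in all 4 groups. Plin1 was also at 0 in KO livers on both diets and in control livers on chow. Retn was at 0 in KO livers on both diets, and Adipoq in control livers on HFD. The sum was therefore not taken as a measure of adipocytes. Erythroid markers summed to 147 to 163 CPM in KO livers and 114 to 120.2 CPM in control livers on HFD, and to 223 to 231 CPM in KO livers and 186 to 195 CPM in control livers on chow. Of 6 tested 5 rose and 1 fell in KO livers on HFD, and 4 rose and 1 fell on chow. Sinusoidal endothelial markers summed to 278 to 284 CPM in KO livers and 269 to 271 CPM in control livers on HFD, and to 249.7 to 254 CPM in KO livers and 211 to 221 CPM in control livers on chow. Of 10 endothelial markers tested 4 rose and 2 fell in KO livers on HFD, and 7 rose on chow. T, NK and B cell markers summed to 3.22 to 4.11 CPM in KO livers and 3.14 to 3.46 CPM in control livers on HFD, and to 6.30 to 7.04 CPM in KO livers and 4.86 to 6.58 CPM in control livers on chow. Of 3 tested 1 rose in KO livers on HFD and 0 passed the test on chow.

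Hepatocyte markers differed between genotypes in opposite directions on the 2 diets. They summed to 104607 to 109550 CPM in KO livers on HFD, against 94426 to 94966 CPM in control livers on HFD (8 of 9 rose, 1 fell). On chow they summed to 93498 to 95400.2 CPM in KO livers, against 97241 to 98251 CPM in control livers (3 rose, 6 fell). On HFD the 28 falls among the oxidation genes stand beside a higher hepatocyte sum, and on chow the 29 falls stand beside a lower one. Periportal markers rose in 7 and fell in 2 of 10 genes on HFD and rose in 3 and fell in 7 on chow, and pericentral markers rose in 6 and fell in 3 of 12 on HFD and rose in 2 and fell in 5 on chow. The hepatocyte list shares Alb and Ass1 with the periportal list and Cyp2e1 with the pericentral list, so these lists are not separate readings. Of all genes averaging at least 50 CPM 39.9% rose and 24% fell on HFD, and 22.9% rose and 36.7% fell on chow. Counts from mitochondrially encoded genes made up 6.49% to 6.76% in KO livers on HFD, against 7.24% to 7.50% in control livers on HFD, and 5.98% to 6.16% in KO livers on chow, against 7.17% to 7.28% in control livers on chow. The part of these differences in the values of the 37 genes was not tested.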

How the data were processed

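Liver RNA was measured by RNA-seq in 12 libraries, 3 in each of 4 genotype-by-diet groups taken from the labels. The authors deposited a table of whole-number counts per Ensembl gene ID, not normalized, summing to 18215008 to 22378180 per library. Bowtie 0.12.2 and the mm8 build are named in the submitters' processing notes, and the counting program, annotation and use of strand are not stated in the sources used here. IDs of the deposited counts were paired with symbols, coordinates and lengths by GENCODE M21, a later build, and 53274 of 53465 matched.

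One edgeR 4.0.16 quasi-likelihood model (R 4.3.3) of the 4 groups was fitted to the 14778 genes that passed filterByExpr, with TMM scaling, and p-values were Benjamini-Hochberg adjusted over all of them. SE is the log2 fold change over the square root of F. The code was tested on simulated counts. Counting error limits low genes such as Etfb, Pdk4 and Abcd2.

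The genes, lists and tests were chosen with earlier results of these data known. Per-library values are given for up to 6 called genes per direction and comparison, up to 5 for the interaction, Ppara and Cpt1a, and list genes were named by up to 3 smallest p-values in each of 2 comparisons. Other genes of the 37 with their own statistics, such as Bdh1, Acadm and Etfa, were named after their values were seen. Alternatives were no count filter, DESeq2 size factors, DESeq2 1.42.0, limma-voom 3.58.1, 2 groups alone, a replicate block, length and GC trends removed, another compartment assignment, and leaving out each library. Added after seeing the data were sums without Acaa1b and the background of genes averaging at least 50 CPM. Protein features were not run. Some genes that the naming rule picked from the lists are not reported here.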

Additional observations from a re-analysis of the deposited data

Results flagged for a closer look

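The HFD effect in KO livers minus that in control livers, which equals the KO effect on HFD minus that on chow, passed edgeR's quasi-likelihood interaction test (adjusted p under 0.05) in 22 of the 37 genes. These are listed because the effect of one factor differed between the levels of the other. On the log2 scale the difference was -1.16 for Abcd2, -0.67 for Vnn1, -0.45 for Cpt1a, -0.35 for Pex11a, -0.26 for Ppara, -0.26 for Crat, -0.25 for Aldh3a2 and -0.18 for Crot. It was 0.11 for Acat1, 0.13 for Decr1, 0.22 for Echs1, 0.24 for Eci2, 0.27 for Etfa and 0.27 for Abcd3. It was 0.28 for Acaa1a, 0.28 for Cpt2, 0.28 for Acaa1b, 0.34 for Pdk4, 0.35 for Acaa2, 0.40 for Ehhadh, 0.65 for Acsl1 and 1.12 for Etfb. The interaction was called for 29.8% of all tested genes. Of the 34 genes averaging at least 50 CPM, 12 were called higher and 7 lower, where 40.1% and 18.5% of all such genes were. Against those shares both counts are near the background. The Acat1, Decr1 and Crat calls did not hold under every alternative, and the Acaa1a and Acaa1b values depend on how reads shared by the pair were counted.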

How the results depend on the processing

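The counts of genes that rose or fell kept within 1.5 times of their reported values under every alternative run. Over the alternatives that keep all libraries, 27 to 29 genes fell in KO livers on HFD and 28 to 29 on chow, and 34 to 35 rose on HFD in KO livers and 34 in control livers. Leaving out each library in turn, 27 to 28 fell on HFD and 26 to 29 on chow. The labels do not say whether the replicate numbers pair the libraries. With the number as a replicate block 28 and 29 genes fell in KO livers on HFD and chow. On HFD 35 rose in KO livers and 34 in control livers. The interaction was called in 13 higher and 8 lower genes, the Decr1 call being lost (0.13, adjusted p = 0.0539). The correlations of same-numbered libraries' deviations were -0.0210 to 0.0245. No shared shift was seen, but these values cannot tell whether the libraries were paired.

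The median of mitochondrial minus that of peroxisomal genes moved with length and GC trends removed, to 0.0519 in KO over control on HFD, -0.0191 on chow and -0.123 in HFD over chow in control livers, and to -0.144 in HFD over chow in KO livers with Crat, Acad11 and Eci2 as peroxisomal. Leaving out each library in turn it ranged over -0.0657 to -0.0182 in KO over control on chow and -0.124 to -0.0658 in HFD over chow in KO livers. Called values that stayed called but moved by over 1.5 times with length and GC trends removed, beside those given above, were Acads, KO against control on HFD (-0.15), Crat, KO against control on chow (-0.20), Slc25a42, HFD against chow in KO (0.15), Acsl1, HFD against chow in control (0.06), and in the interaction Echs1 (0.12), Eci2 (0.13) and Etfa (0.15). The sign turned only in values that had not passed the test. With length and GC trends removed these were Echs1 in KO over control on HFD (-0.0441), Crot in HFD over chow in KO livers (-0.0158), Abcd3 in HFD over chow in control livers (-0.0380) and Acad11 in the interaction (0.0359). In the interaction, Slc25a20 was 0.0029 with no count filter and 0.000527 with limma-voom, Etfdh was 0.000658 with no count filter, and Acadvl was -0.000322 with DESeq2 size factors and -0.000558 with the DESeq2 Wald test. Leaving out each library in turn, the range was -0.164 to 0.189 for Etfb and -0.0187 to 0.0671 for Vnn1 in KO over control on chow, -0.0162 to 0.0224 for Crot in HFD over chow in KO livers, and in the interaction -0.0131 to 0.0198 for Slc25a20, -0.0243 to 0.0335 for Acadvl, -0.0377 to 0.000353 for Acad11 and -0.0206 to 0.0233 for Etfdh. The cause was not tested. Depth limits Etfb, Pdk4 and Abcd2 most.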
